A study of Mus musculus with 6 samples.

Results

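The immune nuclei of a brain lesion driven by Foxr2 alone were described by their RNA and by their open chromatin, both read from the same nucleus with the 10x Multiome assay. A nucleus was taken as immune when its barcode held at least 500 unique molecular identifiers (UMIs), a mitochondrial share of at most 5%, and at least 3 UMIs and 0.2% of its UMIs in the sum of 5 leukocyte and microglia genes, Dock2, Ptprc, Inpp5d, Apbb1ip and Csf1r. The rule found 413 nuclei among the 10063 barcodes of the Foxr2 alone replicate 1 library that passed the limits on UMIs and mitochondrial share, or 4.10% (exact binomial 95% interval 3.72 to 4.51%). The library held 10096 barcodes and the series 22125. The remaining 9650 passing barcodes are called the other barcodes below. Because RNA chose these nuclei, every RNA difference from the other barcodes is a description of what was chosen. The chromatin counts and the second lesion, Foxr2 p53LOF, were not used by the rule.

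Both lesions arose in C57BL/6J mouse brain after in utero electroporation, in which plasmids are pushed into progenitors of the embryonic ganglionic eminences by an electric pulse. In Foxr2 alone the genotype was Foxr2 overexpression, from piggyBac vectors driven by the broadly active CAG promoter that also carried GFP, with Akaluc luciferase as a reporter. Foxr2 p53LOF carried the same overexpression together with p53 loss of function, made with Cas9 and a guide to the p53 gene, so Foxr2 is shared by every library and none lacked it. The paper describes the lesions of Foxr2 alone as nonproliferative and those of Foxr2 p53LOF as aggressive high-grade tumors. The labels call all samples brain tumor. They give neither the age and sex of the mice nor how many were pooled per library. Microglia arise outside the neural lineage that the electroporation targets. Counts were analysed for 1 library of each genotype, so library and genotype cannot be told apart, no test was made, and every interval covers counting error only. Of Foxr2 alone replicate 2 only the barcodes and the list of peaks were used. Foxr2 alone replicate 1 shared 140 barcode sequences with Foxr2 p53LOF, 4 of them immune, and none was immune in both. It shared 19 with Foxr2 alone replicate 2, 1 of them immune.

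Microglia are the resident macrophages of the brain. They depend on the receptor CSF1R and its ligands CSF1 and IL34, on the lineage factor PU.1 (gene Spi1), which binds purine-rich elements with a GGAA core in promoters and enhancers, and on TGF-beta signaling, which maintains the homeostatic genes such as P2ry12, Tmem119 and Sall1. Near damage, amyloid or tumors, microglia can lower these genes and raise disease-associated genes such as Apoe, Lpl, Spp1 and Itgax in part through TREM2, or raise interferon-response and MHC class II genes.

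The sequences below show open regions of the immune nuclei, because chromatin was the readout that the rule did not use. All were read from mm10 (GRCm38.p6), are 300 bases at the centre of a peak, and overlap no annotated exon. Capitals mark the letters GAGGAA on either strand (TTCCTC on the other), extended to GAGGAAGT (ACTTCCTC), the longer form of a PU.1 element, where present. The shorter letters are contained in the longer ones. Among 30017 peak centres of this length that were compared, 3.98% held GAGGAAGT. The peak in an intron of Inpp5d (chr1:87626495-87626794, plus strand), a phosphatase downstream of TREM2, held 66.7 fragments per 1000000 fragments in peaks (FPM) in the immune nuclei and 1.27 in the other barcodes. The intron peak of Cx3cr1 (chr9:120058719-120059018, minus strand), the fractalkine receptor, held 42.7 and 0.838, that of Plcg2 (chr8:117526215-117526514, plus strand), a phospholipase of the same pathway, 74.9 and 1.19, and that of Cd84 (chr1:171845152-171845451, plus strand), a leukocyte adhesion receptor, 41.0 and 0.435 FPM. The peak between protein-coding genes whose nearest such start is that of Pon2, 41079 bp away (chr6:5339384-5339683, plus strand), had the highest fold of the peaks away from promoters with at least 20 fragments, at 44.5 against 0.387 FPM. The peak counted to the promoter of P2ry12 (chr3:59228808-59229107, minus strand), which encodes the ADP receptor of microglial processes, held 65.5 against 2.48 FPM. Its window held none of these letters and was centred in an intron, 1377 bp from the nearest start of P2ry12, so it does not cover that start. The windows of Inpp5d, a rule gene, Cx3cr1 and Plcg2 were added after the values were seen. They were picked as the list-gene peaks with most fragments that hold GAGGAAGT, among peaks called higher in the immune nuclei. These windows thus hold the letters, and are higher in the immune nuclei, by choice. Of the 10 peaks away from promoters with the highest fold, GAGGAAGT was at the centre of those of Cd84 and Cks1brt and of no other. Those of Gm826, the second in rank, Spidr and Sox4 held neither form. The RefSeq promoters of Tgfbr1 and Sall1, read over the 250 bases before the start, held neither form as well. A match is a description of the letters, not of binding.
Inpp5d: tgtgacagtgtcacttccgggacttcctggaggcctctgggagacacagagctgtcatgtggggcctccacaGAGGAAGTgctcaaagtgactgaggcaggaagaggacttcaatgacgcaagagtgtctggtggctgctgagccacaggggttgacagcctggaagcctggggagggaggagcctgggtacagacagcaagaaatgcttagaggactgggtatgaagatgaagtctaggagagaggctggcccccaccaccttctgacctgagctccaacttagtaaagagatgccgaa
Cx3cr1: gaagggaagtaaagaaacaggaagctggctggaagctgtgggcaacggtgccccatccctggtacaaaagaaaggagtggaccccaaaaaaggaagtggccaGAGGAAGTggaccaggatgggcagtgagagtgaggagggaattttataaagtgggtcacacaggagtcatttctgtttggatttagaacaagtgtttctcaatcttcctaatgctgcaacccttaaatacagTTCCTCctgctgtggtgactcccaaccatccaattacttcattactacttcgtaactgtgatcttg
Plcg2: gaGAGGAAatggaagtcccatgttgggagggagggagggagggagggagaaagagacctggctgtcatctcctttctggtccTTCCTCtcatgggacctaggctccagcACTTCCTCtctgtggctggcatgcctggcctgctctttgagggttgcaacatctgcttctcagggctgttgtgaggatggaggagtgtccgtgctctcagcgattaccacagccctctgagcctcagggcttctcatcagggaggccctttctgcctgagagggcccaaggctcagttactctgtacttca
Cd84: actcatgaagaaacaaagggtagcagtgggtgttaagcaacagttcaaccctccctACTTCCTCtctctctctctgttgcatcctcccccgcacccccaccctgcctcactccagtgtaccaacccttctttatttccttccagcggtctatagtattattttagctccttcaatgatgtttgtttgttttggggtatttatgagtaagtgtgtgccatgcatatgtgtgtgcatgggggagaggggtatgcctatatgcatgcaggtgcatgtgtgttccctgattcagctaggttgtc
Pon2: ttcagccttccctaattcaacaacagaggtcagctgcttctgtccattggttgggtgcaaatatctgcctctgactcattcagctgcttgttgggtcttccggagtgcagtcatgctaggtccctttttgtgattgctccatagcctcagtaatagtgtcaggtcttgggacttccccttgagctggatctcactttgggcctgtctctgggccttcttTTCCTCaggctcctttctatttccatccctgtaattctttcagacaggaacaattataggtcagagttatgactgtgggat
P2ry12: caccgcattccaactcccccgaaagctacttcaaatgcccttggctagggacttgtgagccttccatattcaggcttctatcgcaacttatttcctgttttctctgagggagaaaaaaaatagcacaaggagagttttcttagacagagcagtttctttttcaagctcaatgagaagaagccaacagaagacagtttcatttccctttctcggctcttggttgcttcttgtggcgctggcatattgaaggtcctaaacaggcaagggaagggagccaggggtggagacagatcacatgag

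The immune nuclei were small libraries. They held 614484 UMIs in all, with a median of 1189 UMIs (525 to 13800) and 880 genes per nucleus, against a median of 5242 UMIs in the other barcodes. Their fragments in peaks, 1709285 in all with a median of 4020 per nucleus, stood beside a median of 4934.5 in the other barcodes. Oligodendrocyte barcodes, chosen by myelin genes, were close to the immune nuclei in depth (407 barcodes, median 1155 UMIs) and served as the background for RNA that leaks between droplets. Library totals were 59719847 UMIs for Foxr2 alone and 96929539 for Foxr2 p53LOF. The Scrublet doublet caller marked 38 of the 413 nuclei (9.20%) and 907 of all 10063 passing barcodes (9.01%), and these were kept.

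The label of mostly microglial nuclei was described on the 11 genes of a 14-gene microglia list that are not rule genes, in RNA and in chromatin. RNA chose the nuclei, and the list was chosen with earlier results known, so the values give no independent support. The list also holds the rule genes Csf1r, Inpp5d and Dock2, which the rule itself made high. The 11 genes, among them P2ry12 and Cx3cr1, summed to 4122 UMIs per 1000000 UMIs of the set (CPM) in the immune nuclei, 77.4 in oligodendrocyte barcodes and 119 in the other barcodes, and 372 of the 413 nuclei had at least 2 UMIs of them, against 2 of 407 oligodendrocyte barcodes. In chromatin, the 53 peaks at the microglia loci outside the rule genes took a median of 1.35 per 1000 fragments of an immune nucleus. In oligodendrocyte barcodes the median was 0.433, and in the other barcodes 0.317, each over nuclei with at least 400 fragments. A fragment in these peaks was seen in 376 of 405 immune nuclei. The distributions overlapped, since 148 of the 405 immune nuclei lay below the 95th percentile of the other barcodes and 266 of 9102 other barcodes reached the immune median. At the 62 peaks of the rule genes, the medians were 1.32, 0.172 and 0.114 per 1000 in the same order.

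**Figure D1:**
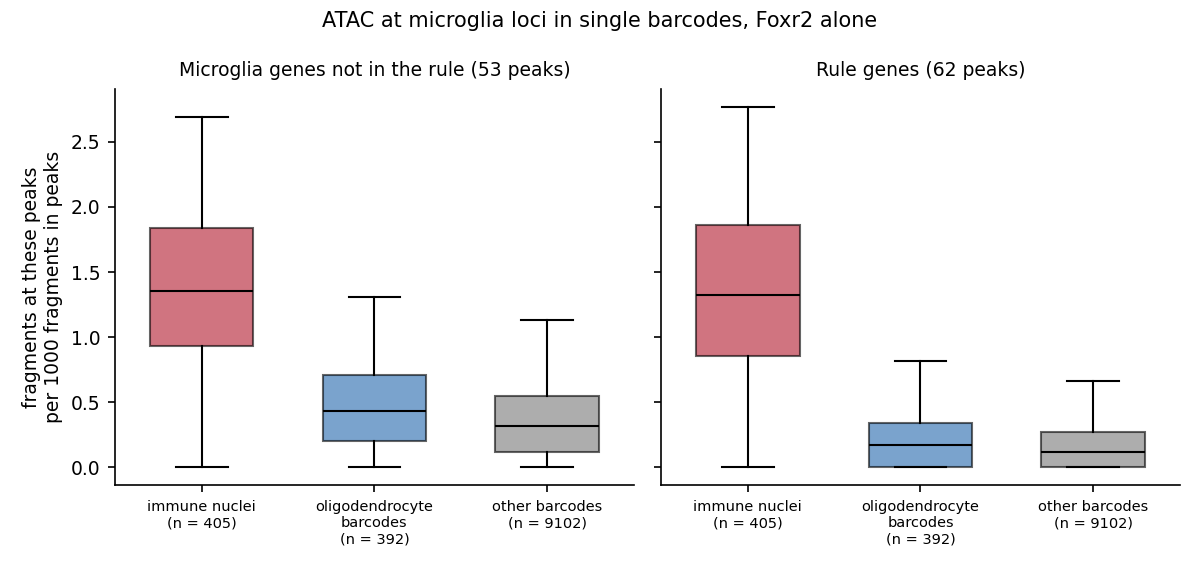
Fragments per 1000 in peaks at microglia loci outside the rule genes and at the rule genes, by set of barcodes, with the median, the quartiles and the 5th to 95th percentiles. At the microglia loci the immune nuclei had a median of 1.35, oligodendrocyte barcodes 0.433 and other barcodes 0.317, with overlapping ranges.

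Nuclei just inside and just outside the threshold were described without a test. The 48 nuclei with 3 UMIs of the rule genes had 4226 CPM of the 11 microglia genes outside the rule and 1566 FPM at their loci, and the 315 with at least 5 UMIs had 4027 CPM and 1343 FPM. Outside the rule, 19 barcodes with 2 UMIs and a share of at least 0.2% had 4758 CPM and 1355 FPM, values in the range of the members. The 116 barcodes with at least 3 UMIs but a lower share were larger, with a median of 8858 UMIs, and had 528 CPM and 658 FPM. The 8926 barcodes with 0 UMIs had 106 CPM and 358 FPM.

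Genes were called higher or lower when the ratio of CPM was at least 2-fold and its exact Poisson interval excluded 1, among 11646 genes with at least 10 CPM in either set. By this rule 26.5% of the tested genes were higher in the immune nuclei than in the other barcodes and 21.9% were lower, and the median log2 ratio over all of them was 0.22. A list gene that passed the filter only through its level in the immune nuclei had to differ, so counts within lists are descriptions. All 5 rule genes were high by construction, from 583 CPM for Ptprc, the leukocyte phosphatase CD45, to 1896 CPM for Inpp5d, with at most 8.01 CPM in the other barcodes. A value in CPM depends on gene length and on intronic priming in nuclei, so levels were compared between sets and not between genes.

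Receptors of the CSF1R and TREM2 axis and the proteins downstream of them were high in the immune nuclei, and the ligands of CSF1R were not. Of 20 genes on the list, all were tested, 18 were higher and 1 lower, with a median log2 of 7.20. The higher genes include the rule genes Csf1r, Inpp5d and Dock2, which the rule itself made high. The ligand Csf1 was at 16.3 CPM (95% interval 7.80 to 29.9) in the immune nuclei and 11.6 in the other barcodes, and was not called. Il34, a ligand made by neurons, was the gene that was lower, with 3 UMIs (4.88 CPM) against 32.3 CPM. The receptor Csf1r, a rule gene, stood at 864 CPM (792 to 941) against 3.84, a log2 of 7.81 (7.59 to 8.04). Trem2, the lipid-sensing receptor, was at 267 against 1.90 CPM, and its signaling adaptor Tyrobp (DAP12) at 539 against 5.81. Downstream, the kinases Syk (295 CPM), Lyn (1483) and Btk (107), the phospholipase Plcg2 (252), the exchange factor Vav1 (249) and the adaptor Fyb (540.3) were all higher than in the other barcodes.

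The homeostatic program was present in RNA. All 15 tested genes of the homeostatic list of 16 were higher, with a median log2 of 6.42, and the list summed to 17144 CPM against 736. P2ry12 reached 656 CPM (593 to 723) against 36.1, and P2ry13, a second purine receptor, 96.0 against 0.593. Tmem119, a membrane protein that marks microglia against blood-derived macrophages, was at 112 against 0.389, the lectin Siglech at 234 against 0.880, and Sall1, a repressor that maintains microglial identity, at 73.2 against 1.85 CPM. The cysteine protease Ctss reached 4265 CPM (log2 of 7.42), the protease inhibitor Cst3 5741 against 541, and Mertk, a receptor for the uptake of dying cells, 1492 against 34.5. Cx3cr1 was at 182 CPM (150.1 to 219) against 17.4. Its annotated span overlaps other genes on the same strand, and the value is uncertain for that reason. Olfml3 had 4 UMIs (6.51 CPM) and was below the filter.

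Thinned to 500 UMIs per nucleus, so that depth was equal, Ctss, C1qa and the rule gene Inpp5d were found in most nuclei. Ctss was seen in 84.0% of the 413 nuclei (97.3% before thinning) and in 0.737% of oligodendrocyte barcodes. The shares were 73.4% and 0.737% for C1qa and 63.2% and 0% for Inpp5d. P2ry12 was seen in 28.8% (53.8% before thinning) and in 0%, or 0.737% at a floor of 3 counts in 407 barcodes. Cst3 was seen in 87.2% of immune nuclei but also in 21.9% of oligodendrocyte barcodes. Apoe was found in 33.2% of immune nuclei and 48.6% of oligodendrocyte barcodes, so a UMI of Apoe did not set immune nuclei apart.

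Myeloid transcription factors, TGF-beta receptors and purine-sensing genes were also high. Of the 14 factors, all were tested and 13 were higher, with a median log2 of 5.82. Spi1 reached 155 CPM against 0.982, its partner Irf8 199 against 1.76, Runx1 697 against 3.54, the macrophage factor Maf 408 against 13.9, and Mef2a 1658 against 262. Mef2c, which neurons also use, was the exception, at 651 against 470.5 CPM. In the TGF-beta list, 10 of 11 tested genes were higher, with the receptors Tgfbr1 at 1512 against 16.2 and Tgfbr2 at 330.4 against 4.74, and the ligand Tgfb1 at 96.0 against 1.07 CPM. Itgb8, an integrin subunit that activates latent TGF-beta, was not called at 27.7 against 40.3. Among 8 purine-sensing genes, 7 were higher, among them Entpd1 (489.8 against 7.31 CPM), which removes phosphates from ATP, and the adenosine receptor Adora3 (57.0 against 0.152). Nt5e, which makes adenosine from AMP, was lower at 8.14 against 33.8.

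Complement and phagocytosis genes were high as a group. They summed to 11479.6 CPM against 166, and 14 of 15 tested genes were higher. The C1q chains C1qa, C1qb and C1qc, which start the classical complement cascade, stood at 3071, 2856 and 2275 CPM, against 18.8, 18.8 and 14.9. The Fc receptor Fcgr3 was at 627 against 4.61, the lysosomal protein Cd68 at 132 against 5.76, and the integrin Itgam at 89.5 against 0.643 CPM. Of the 55 UMIs of Itgam, 31 were in 7 nuclei with neutrophil and monocyte genes, and without the 25 nuclei that carried markers of another immune cell it was at 39.3 CPM.

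Disease-associated genes were split. Of 18 genes with a row in the files, 13 were tested, 9 were higher and 2 were lower. Clec7a was not analysed here. The higher genes held the receptor pair Trem2 and Tyrobp and the lysosomal and tetraspanin genes, with Ctsb at 884 against 115 CPM, Ctsd at 1048 against 42.6, Cd9 at 392 against 31.1 and Cd63 at 423 against 17.5. Apoe was at 1177 against 551, a log2 of 1.09 (0.98 to 1.20). The list summed to 4936 CPM in the immune nuclei, 2282 in oligodendrocyte barcodes and 906 in the other barcodes. Oligodendrocyte barcodes held Apoe at 1396, above its immune level, and Cd9 at 288. They held Ctsb at 205, Ctsd at 92.9 and Cd63 at 105 CPM. Spp1, a secreted phosphoprotein, was also higher in the immune nuclei than in the other barcodes, at 48.8 against 1.69 CPM, and so was the lectin Lgals3, at 53.7 against 4.15, or 13.1 without 25 nuclei that carried markers of another immune cell. Other members had few UMIs. Itgax and Gpnmb had 1 UMI each over all 413 nuclei, Axl had 3 UMIs, and Lpl was lower than in the other barcodes at 8.14 against 24.7 CPM. Igf1, a growth factor, was also lower, with 0 UMIs, or 4.88 CPM at the floor of 3 counts, against 11.5.

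Interferon-response, MHC class II and proliferation genes had few UMIs. The interferon list summed to 189 CPM, the MHC class II list to 146 and the proliferation list to 65.1. In these lists, 3 of 15 interferon genes with a row in the files, 3 of 7 MHC class II genes and 2 of 12 proliferation genes reached the filter. Among those, 3, 3 and 1 were higher than in the other barcodes. Mx1 was not analysed here. Stat2, a factor of interferon signaling, was at 68.3 against 23.3 CPM, while Ifit1, Ifit2, Ifi44 and Gbp3 had 0 UMIs. Cd74, the MHC class II chaperone, had 13 UMIs (21.2 CPM, 11.3 to 36.2), H2-Aa 2 UMIs, and H2-Eb1 and Ciita, the class II master activator, 0 UMIs. H2-DMa, the class II peptide-loading gene, was at 76.5 against 8.30 CPM. The cycling genes Mki67 and Top2a had 1 and 0 UMIs. MHC class I genes were all higher, with B2m at 1435 against 50.8 and H2-K1, whose reads can be shared with related class I genes, at 174 against 8.57 CPM.

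Cytokine and immediate activation genes were low in level. Of 16, 10 were tested and 9 were higher, for a sum of 639.6 against 126 CPM. The NF-kB inhibitor Nfkbia was at 195 against 63.1, the AP-1 subunit Junb at 146 against 30.5, the chemokines Ccl3 and Ccl4 at 42.3 and 40.7, Tnf at 19.5 and Il1a at 27.7 CPM. Oligodendrocyte barcodes held 590.4 CPM of the list, close to the immune level, and Nfkbia, at 569 CPM there, made up most of it. Junb was at 11.6 CPM in them, and Ccl3, Ccl4, Tnf and Il1a had 0 UMIs. In the immune nuclei Il1b had 3 UMIs, and Ccl2, Cxcl10 and Fos had 0.

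**Figure D2:**
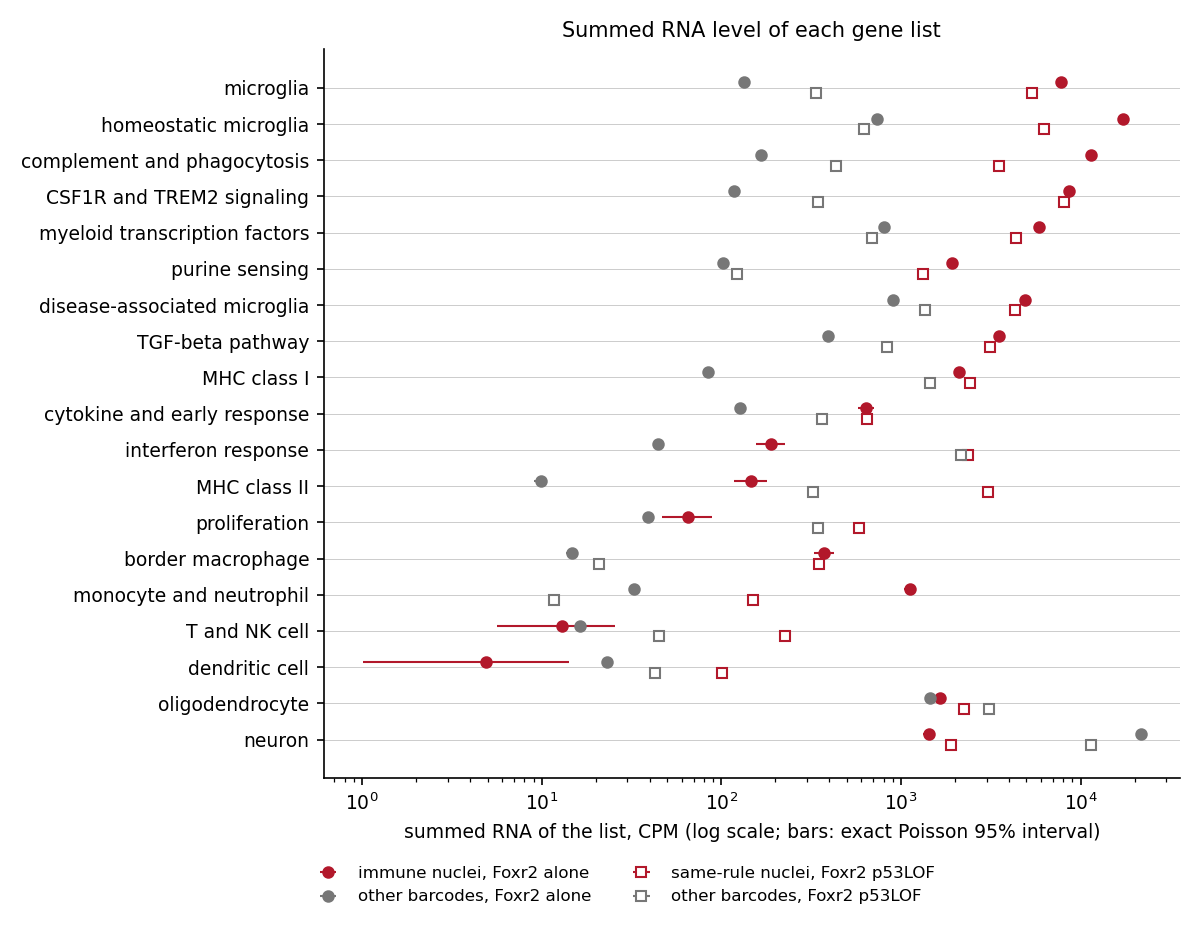
Summed level of each gene list, in CPM on a log axis, in the immune nuclei and other barcodes of Foxr2 alone and in the same-rule nuclei and other barcodes of Foxr2 p53LOF. Homeostatic genes stood at 17144 CPM in the immune nuclei of Foxr2 alone and 6280.3 in those of Foxr2 p53LOF, and MHC class II genes at 146 and 3033.

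Beyond the lists, the 15 genes with the highest fold over the other barcodes, with at least 20 UMIs, included the Toll-like receptor Tlr1 (39.1 against 0.0677 CPM), the leukotriene receptor Cysltr1 (34.2 against 0.119), the adhesion protein Cd48 (112 against 0.389), the protease Ctse (94.4 against 0.305) and the exchange factor Fgd2 (153 against 0.525). The lectin receptor Clec4a1 (32.5 against 0.102 CPM) and Ear2 (40.7 CPM), also among the 15, rested on few nuclei. Without the 25 nuclei that carried markers of another immune cell, described with the border macrophages and neutrophils, Clec4a1 was at 7.49 CPM with 4 of its 20 UMIs, and Ear2 had 0, since all 25 of its UMIs were in the 7 nuclei with neutrophil and monocyte genes. Ear2, Naip6 (74.9) and Ifi204 (74.9) belong to families of near-identical copies, and their values are uncertain. Genes that were lower were led, by their level in the other barcodes, by Malat1 (23958 against 50115 CPM), a nuclear noncoding RNA, and by neuronal genes such as Ptprd (309 against 5715), Kcnip4 (164 against 5319) and Meg3 (156 against 3900.4). Without the same 25 nuclei these neuronal genes were at 206, 103 and 69.3 CPM.

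Chromatin, which the rule did not use, was compared in the same way, in FPM, among 30031 peaks with at least 10 FPM in either set. Of these peaks 29.6% were higher in the immune nuclei and 31.7% lower. Of 16380 peaks away from promoters 38.8% were higher and 41.7% lower, and of 13651 peaks at promoters 18.4% and 19.8%. With promoter peaks, those within 1 kb of an annotated start, summed per gene, 15.6% of 14501 genes were higher and 17.6% lower, with a median log2 of 0.40. In the microglia list 11 of 12 tested promoters were higher, in the homeostatic list 11 of 12, among the myeloid factors 14 of 14, and in the CSF1R and TREM2 list 17 of 18. Their median log2 ratios were 4.79, 3.67, 2.87 and 4.72, respectively. As in RNA, a promoter that passed the filter only through its level in the immune nuclei could not be called lower. These counts are therefore descriptions. Summed over promoter and gene body peaks, 13.5% of 17557 genes were higher and 27.0% lower, and 10 of 12 microglia genes were higher. In the neuron list 12 of 13 promoters were lower, with a median of -4.28.

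Single promoters followed the RNA for the lineage genes. The Csf1r promoter held 60.8 FPM against 2.24, a log2 of 4.76 (4.38 to 5.14). P2ry12 stood at 106 against 3.67, Cx3cr1 at 43.9 against 1.55, and Tmem119 at 34.5 against 2.06. Siglech was at 52.1 against 0.725 and Spi1 at 56.7 against 2.06. Tyrobp reached 159 against 3.13 and C1qb 98.9 against 1.64 FPM. Promoters with more fragments in the other barcodes had smaller ratios, such as Tgfbr1 at 138 against 34.1 and Cst3 at 88.9 against 19.6. Ctss had no peak within 1 kb of its start.

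Mef2c was not called in RNA, and its promoter was higher in the immune nuclei at 132 against 32.5 FPM, a log2 of 2.02 (1.82 to 2.22). The Mki67 promoter was at 46.2 against 18.2, a log2 of 1.34 (0.99 to 1.67), in nuclei with 1 UMI of Mki67 in all. The gene was below the filter on RNA, and a difference between its readouts was not detectable at this depth. Both genes were singled out after their values were seen. For interferon genes 5 of 8 tested promoters were higher, and for MHC class II genes 2 of 5. The Cd74 promoter was at 14.0 FPM in the immune nuclei, a log2 of 1.13 over the other barcodes.

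Across genes, of 2662 genes higher in RNA with a tested promoter, 45.4% were also higher at the promoter and 0.488% were lower. Of 2001 genes lower in RNA, 62.3% were lower at the promoter and 0.900% higher. Of 5700 genes that were called in neither direction, 5.16% were higher and 5.93% lower. Genes are not replicates, and both readouts came from the same nuclei.

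**Figure D3:**
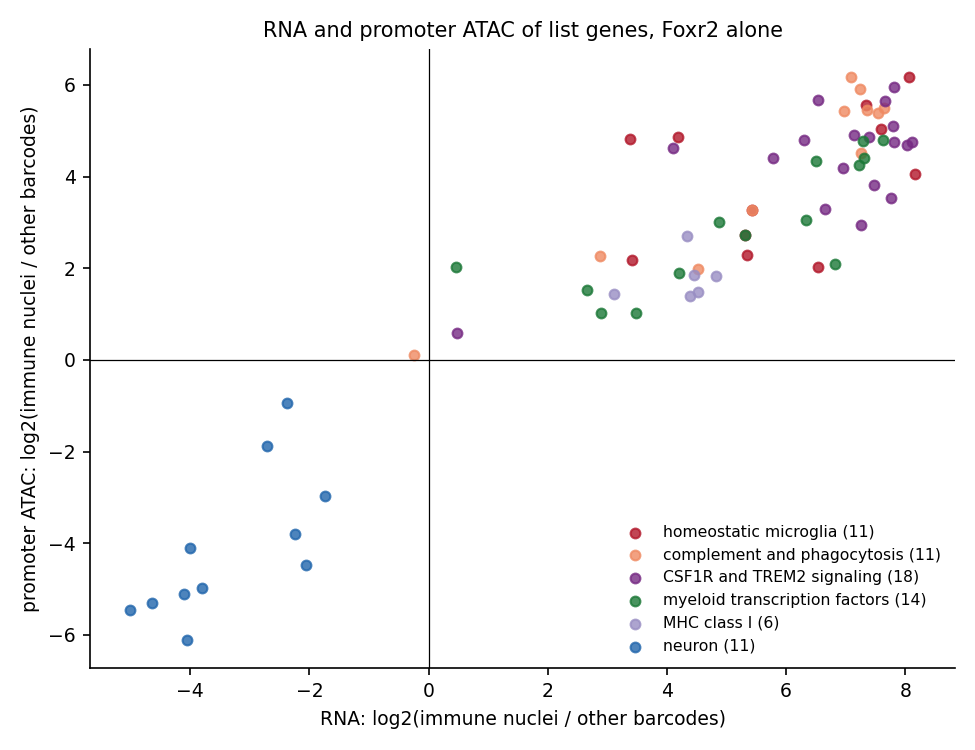
Log2 ratio of immune nuclei over other barcodes in RNA (x axis) and in promoter fragments (y axis), 1 point per gene and list. Drawn are the homeostatic, complement, CSF1R and TREM2, myeloid factor, MHC class I and neuron lists. Genes not tested in both readouts, or at a bound, are left out. The homeostatic microglia genes lay in the upper right quadrant. Over all genes higher in RNA with a tested promoter, not only those drawn, 45.4% were higher at the promoter and 0.488% lower.

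The long PU.1 letters were set against the calls. Away from promoters, GAGGAAGT was present in 665 of 6357 centres of higher peaks (10.5%, 9.72 to 11.2%), in 94 of 6824 lower peaks (1.38%, 1.11 to 1.68%) and in 2.10% of 3190 peaks called in neither direction. At promoters the letters were found in 149 of 2518 higher peaks (5.92%) and in 27 of 2701 lower peaks. The shorter GAGGAA was found in 45.4% of higher and 27.9% of lower peaks away from promoters. Median GC content was similar, at 51.0% and 51.7%. Other letters, chosen after the data were seen and searched on both strands, gave 3.84% and 1.85% for TGTGGTTT (RUNX), 17.8% and 20.4% for TGANTCA (AP-1), 4.67% and 2.96% for GAAA repeated after 2 bases (IRF), 0.409% and 0.572% for a 10-letter MEF2 element, and 2.49% and 3.25% for CAGATGGC (a proneural E-box). In RefSeq promoters, from 250 bases before to 50 after the start, GAGGAAGT was found in 3.20% of 32851. It was found in 1 of 15 promoters of 12 homeostatic genes, and in 4 of 16 promoters of 14 genes of the CSF1R and TREM2 list, in 1 of 14 of complement genes, 1 of 11 of the microglia list and 0 of 18 of the myeloid factors.

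**Figure D4:**
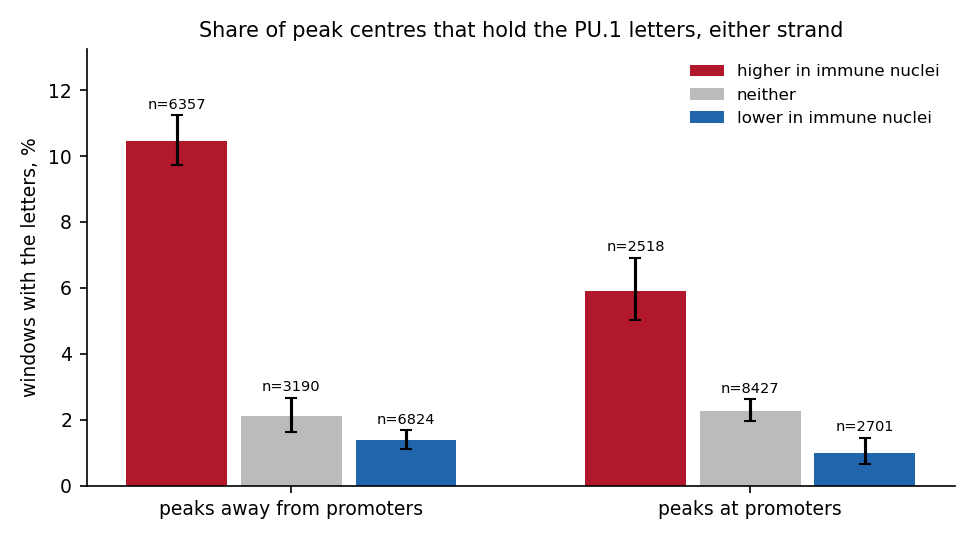
Share of 300-base peak centres that hold GAGGAAGT on either strand, in percent with exact binomial 95% intervals, for peaks at promoters and away from them, by call in the immune nuclei. Away from promoters the share was 10.5% in higher peaks and 1.38% in lower peaks.

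The 10 peaks away from promoters with the highest fold were each at least 83.2-fold higher. The peaks nearest to the starts of Myo1f, Cd84, Spidr and Ildr1 lay in introns of those genes. Those nearest to Pon2, Gm826, Cks1brt, Sox4 and Id2 lay between protein-coding genes, and the one nearest to Gsap overlapped an exon of the annotated gene model Gm42660. Nearness does not say which gene a region serves. The Myo1f peak, in a gene for a leukocyte myosin, held 60.3 against 0.628 FPM, and Myo1f RNA was at 218 against 1.10 CPM. Cd84 RNA was at 467 against 2.25, and that of Pon2, a paraoxonase, at 225 against 27.1. Cks1brt had 0 UMIs in the immune nuclei. All 10 peaks overlapped a peak in the lists of Foxr2 alone replicate 2 and of Foxr2 p53LOF. Of all higher peaks, 93.9% overlapped a peak of Foxr2 alone replicate 2 and 92.2% one of Foxr2 p53LOF by at least 1 bp, beside 93.6% and 89.2% of all tested peaks and 88.7% and 76.4% of lower peaks. These lists were called over all nuclei of each library and do not separate cell types.

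A few nuclei under the rule carried markers of other myeloid cells. Border macrophages, which line meninges and vessels, are marked by genes such as Mrc1, Cd163 and F13a1. At least 2 UMIs of their list were found in 17 nuclei (4.12%, 2.42 to 6.51%). Of these 17, 11 had at least 3 UMIs, 7 had 14 to 29 UMIs and the remainder 2 or 3. All 70 UMIs of Mrc1, 22 of Cd163 and 35 of F13a1 in the immune nuclei were in these 17. The 7 nuclei held 1246 to 2523 UMIs each and 0 to 5 UMIs of the 11 microglia genes. The remainder held 4 to 24 UMIs of those genes, and all but 1 of them had a UMI of Stab1, a scavenger receptor that was seen in 73 immune nuclei, with 32.2% of its UMIs in the 17. At the 53 microglia peaks the 17 nuclei had 1233 FPM (1019 to 1479), the 11 with at least 3 UMIs 921 (652 to 1264), the 62 with 1 UMI 1622 (1469 to 1786) and those with none 1332 (1271 to 1395), against 477 in oligodendrocyte barcodes and 369 in the other barcodes. At the 17 border macrophage peaks the 17 nuclei had 138 (73.6 to 236) and the 11 had 194 (83.7 to 382), against 111 (93.9 to 130) in nuclei with none, so a difference there was not detectable at this depth.

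Neutrophil and monocyte genes came from a handful of nuclei. At least 2 UMIs of that list were found in 7 nuclei, which held 681 of the list's 690 UMIs, and 4 of them carried S100a8 and S100a9, the subunits of calprotectin. These 4 held 288 of 294 UMIs of S100a8 and 218 of 221 of S100a9. All 48 UMIs of the neutrophil gene Retnlg were in 1 of the 4. All 78 of the granule gene Ngp were also in 1 of the 4, not necessarily the same nucleus. The acute-phase gene Saa3 had 296 of 303 UMIs in the 7 nuclei, and Lyz2, macrophage lysozyme, 230 of 348. Ccr2, the receptor of inflammatory monocytes, had 0 UMIs. The 7 nuclei were deep, with a median of 6449 UMIs, and they held 7493 CPM of the neuron list, 232 CPM of the 11 microglia genes and 569 FPM (357 to 862) at the microglia peaks. Of their 356 neuron-list UMIs, 230 were in 1 nucleus of 13800 UMIs, which had no S100a8 or S100a9, and 119 were in the 4. The part of doublets and of free RNA in these nuclei was not tested. Without the 25 nuclei that carried at least 2 UMIs of any other immune list, S100a8 stood at 11.2 CPM, S100a9 at 5.62, Saa3 at 13.1 and Lyz2 at 167, and S100a8 and S100a9 were then no longer above the other barcodes.

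Lymphocyte and dendritic cell markers were close to absent. Of 14 T and NK cell genes 10 had 0 UMIs, and 8 nuclei had 1 UMI of the list and 0 had 2. Dendritic cell genes were seen with 1 UMI in 3 nuclei, the same number as in oligodendrocyte barcodes. The B cell list was seen in 21 nuclei, 1 of them with 2 UMIs, against 4 of 407 oligodendrocyte barcodes. It rested mostly on Bank1 and Ighm, and 4 of its 7 genes had 0 UMIs.

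Neuronal RNA was present at a low level. The neuron list of 13 genes summed to 1424 CPM (1331 to 1522) in the immune nuclei, 6.59% of its level in the other barcodes (21621 CPM). Oligodendrocyte barcodes held 530.4 CPM, or 2.45%. The other barcodes were deeper, and among those with fewer than 1000 UMIs they held 795 CPM, among those with 1000 to fewer than 2000 UMIs 1464, and among deeper ones 23076. All 13 genes were lower in the immune nuclei, with a median log2 of -3.80. By depth, the level was 678 CPM in 117 immune nuclei with fewer than 1000 UMIs, 715 in 233 nuclei with 1000 to fewer than 2000, and 2775 in 63 nuclei with 2000 or more, which held 592 of the 875 UMIs. In oligodendrocyte barcodes of the same ranges it was 596, 505 and 542 CPM. Homeostatic genes moved the other way, at 21469, 20252 and 10736 CPM. Oligodendrocyte genes stood at 536, 681 and 3549 CPM in these ranges. In the deepest range, the 7 nuclei with neutrophil and monocyte genes held 356 of the 592 neuron-list UMIs. The largest count in 1 immune nucleus, 230 of these 356, was in the nucleus with 13800 UMIs. The 4 nuclei with S100a8 and S100a9 held 119. The median share of the neuron list per immune nucleus was 0, 0.058 and 0.062% of UMIs by range. In chromatin the 548 peaks of the neuron list held 356 FPM in the immune nuclei, 243 in oligodendrocyte barcodes and 3111 in the other barcodes. The 38 nuclei marked by Scrublet moved with it, since without marked barcodes the list stood at 750.0 CPM. The part of doublets and of free RNA in this level was not tested.

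**Figure D5:**
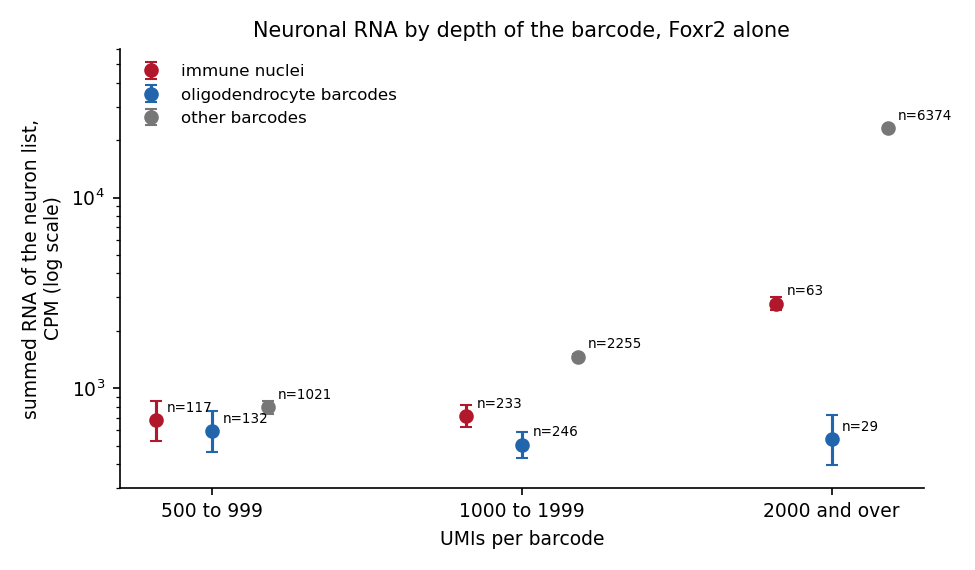
Summed level of the 13 neuron-list genes, in CPM on a log axis with exact Poisson 95% intervals, by range of UMIs per barcode, for immune nuclei, oligodendrocyte barcodes and other barcodes. The immune nuclei stood at 678, 715 and 2775 CPM and the oligodendrocyte barcodes at 596, 505 and 542. In the deepest range of immune nuclei, 7 nuclei with neutrophil and monocyte genes held 356 of the 592 UMIs, 230 of them in 1 nucleus.

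Some neuronal genes stood much nearer to their level in the other barcodes. Nrgn, a postsynaptic calmodulin-binding protein, was at 231 CPM in immune nuclei, 201 in oligodendrocyte barcodes and 414 in the other barcodes. Pcp4 was at 286, 170.3 and 335, and the neuropeptide Sst at 117, 71.6 and 227. For 7 such genes (Nrgn, Pcp4, Sst, Npy, Ppp1r1b, Hpca and Ttc9b) the immune level was 45.3 to 96.5% of that in the other barcodes and the oligodendrocyte level 31.5 to 57.4%. For the neuron list the ranges were 3.09 to 29.9% and 0.794 to 19.5%, and for the neuropeptide gene Penk the levels were 27.7 and 14.6%. The 7 genes were chosen by their rank against Foxr2 p53LOF. Oligodendrocyte barcodes, chosen by myelin genes, held them too, at a lower CPM than the immune nuclei for each of the 7. Whether immune cells express them was not tested, nor was the part of doublets and of free RNA. Ptgds and Mbp, genes of oligodendrocytes and the meninges, were at 4068 and 771 CPM in the immune nuclei and at 45023 and 8978 in oligodendrocyte barcodes.

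Vector RNA was scarce in the immune nuclei. Foxr2 had 0 UMIs (0 CPM, 0 to 6.00), against 3.79 CPM (224 UMIs) in the other barcodes, so a difference was not detectable at this depth. GFP had 11 UMIs (17.9 CPM, 8.94 to 32.0) against 29.2 CPM, a level inside its interval, and Akaluc 3 UMIs (4.88 CPM) against 7.64. In the same-rule nuclei of Foxr2 p53LOF, Foxr2 stood at 31.0 CPM against 49.9 in its other barcodes and GFP at 243 against 416, and the part of free RNA in these values was not tested.

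The same rule found 2100 of 10183 passing barcodes in Foxr2 p53LOF, or 20.6% (19.8 to 21.4%), against 4.10% in Foxr2 alone. Those nuclei were deeper, with a median of 2862 UMIs (740 to 349167), and 80 of them with at least 20000 UMIs held 29.6% of their UMIs. Depth moved with the share of immune nuclei, and its part was not tested. They also held more nuclei with markers of other immune cells, since 1092 of 2100 carried at least 2 UMIs of another immune list against 25 of 413. Among 11270 genes, 18.8% were higher in the Foxr2 alone nuclei and 15.8% lower, with a median log2 of 0.06.

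The homeostatic and complement lists were higher in sum in the immune nuclei of Foxr2 alone, with members in both directions. The homeostatic list summed to 17144 CPM against 6280.3, with 7 of 16 genes higher and 2 lower, and the complement list to 11479.6 against 3531, with 7 of 16 higher and 2 lower. The median log2 over the genes was smaller, at 0.82 and 0.77, and a few abundant genes made up much of the sums, Cst3 of the first and the C1q chains of the second. C1qa stood at 3071 against 589 CPM, a log2 of 2.38 (2.31 to 2.46), with 34.3 CPM in the other barcodes of Foxr2 p53LOF. Cst3 was at 5741 against 416 CPM, and it was higher in Foxr2 alone in other cells too, at 541 against 134 in the other barcodes and 472 against 111 in oligodendrocyte barcodes. Trem2 was at 267 against 50.5, Tyrobp at 539 against 102, and Maf at 408 against 78.7 CPM. P2ry12, at 656 against 447, and Cx3cr1, at 182 against 196, were not called, and Fcrls and Olfml3 were lower, at 47.2 against 107 and 6.51 against 65.8. The rule genes, which chose both sets of nuclei, went both ways, with Csf1r higher at 864 against 416, Inpp5d not called at 1896 against 1064, and lower values for Dock2 at 864 against 1739 and Ptprc at 583 against 1238 CPM. After thinning to 500 UMIs, C1qa was seen in 73.4% of nuclei against 28.0% and Dock2 in 36.6% against 60.3%.

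MHC class II, interferon and proliferation genes were lower in the immune nuclei of Foxr2 alone. The MHC class II list stood at 146 against 3033 CPM and 6 of 7 genes were lower, with Cd74 at 21.2 against 1184, a log2 of -5.81 (-6.72 to -5.03). Cd74 was seen in 0.484% of thinned nuclei against 44.0%. All 15 interferon genes were lower, for a sum of 189 against 2348 CPM. Members such as Ifit1, Ifit2, Ifi44 and Gbp3, without a UMI in Foxr2 alone, passed the filter only through Foxr2 p53LOF. They could not have been called higher. The guanylate-binding gene Gbp2 was at 1.63 against 328 CPM. In the other barcodes of Foxr2 p53LOF it was at 550.2 CPM. These lists moved in other cells of the libraries too. In oligodendrocyte barcodes the interferon list was at 60.0 CPM in Foxr2 alone and 1530.3 in Foxr2 p53LOF, and the MHC class II list at 11.6 and 156. In the other barcodes the interferon list was at 44.4 and 2157 CPM and the MHC class II list at 9.89 and 325, and the part of free RNA was not tested. Of 9 proliferation genes 7 were lower, with Mki67 at 1.63 against 123 CPM. That list stood at 39.1 and 344 CPM in the other barcodes of Foxr2 alone and Foxr2 p53LOF and at 58.1 and 78.1 in oligodendrocyte barcodes. The T and NK cell list had 8 UMIs in all against 2575 UMIs (227 CPM), and the dendritic cell list stood at 4.88 against 101.

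Disease-associated genes were split by member in this comparison too. Of 18 genes 5 were higher and 9 lower. Higher were Trem2, Tyrobp, Cd9 (392 against 137 CPM), Ctsd (1048 against 506) and Cd63 (423 against 202). Lower were, among others, Gpnmb (1.63 against 108), Itgax (1.63 against 95.4), the receptor kinase Axl (4.88 against 164), Spp1 (48.8 against 174) and Lgals3 (53.7 against 125). Without the 25 nuclei with markers of another immune cell, 7 of the 33 UMIs of Lgals3 in Foxr2 alone were left. Apoe was at 1177 against 1853 and was not called. The complement receptor subunit Itgam was lower, at 89.5 against 360.0 CPM. Fkbp5, a glucocorticoid-responsive chaperone chosen after its values were seen, stood at 1738 CPM in the immune nuclei of Foxr2 alone and 189 in those of Foxr2 p53LOF, and at 362 and 80.7 in the oligodendrocyte barcodes.

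The makeup of the groups moved with this comparison. Without nuclei that carried another immune list, 388 and 1008 nuclei remained. The cut of 2 UMIs depends on depth, so this setting changed depth as well as makeup. The part of each was not tested. The log2 ratio of the sums was then 1.17 for homeostatic genes (1.45 with all nuclei), 1.52 for complement (1.70), -4.38 for MHC class II (-4.37), -3.54 for interferon (-3.64) and -3.03 for proliferation (-3.16). C1qa was then at 3429.7 against 811 CPM and Cd74 at 22.5 against 1307. Csf1r (882 against 557), Ctsd (1076 against 769) and Cd63 (462 against 251) were then less than 2-fold apart. Lgals3 was at 13.1 against 111 CPM and Itgam at 39.3 against 489, both further below Foxr2 p53LOF than with all nuclei. With only nuclei of fewer than 2000 UMIs in both libraries, homeostatic genes stood at 1.27, complement at 1.62 and MHC class II at -4.97. Proliferation genes stood at 70.8 (28.5 to 146) against 666 CPM (373 to 1098) in nuclei with fewer than 1000 UMIs. These values rest on 7 UMIs in 117 nuclei and 15 UMIs in 25 nuclei of Foxr2 p53LOF. In nuclei with 1000 to fewer than 2000 UMIs the list stood at 49.6 against 270 CPM, from 15 and 191 UMIs. For the disease-associated list the log2 was 0.20 with all nuclei, 0.02 without those that carried another immune list and -0.33 in the shallow ones. For the CSF1R and TREM2 list it was 0.10, -0.08 and -0.01. Neither of those lists had a direction that held.

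Promoters were compared between the lesions as well. Over 14138 promoters with a peak in both libraries, per 1000000 fragments in promoter peaks, 1.47% were higher in the immune nuclei of Foxr2 alone and 8.86% lower, with a median log2 of -0.02. Of 6 MHC class II promoters 4 were lower, with Cd74 at 23.4 against 165 FPM (log2 -2.82) and H2-Aa at 15.6 against 76.6 (log2 -2.29). Of 12 interferon promoters 6 were lower. No proliferation promoter of 12 was called, with a median log2 of -0.23. Among 12 homeostatic promoters 1 was higher, Siglech (log2 1.65), and the median was 0.38. Of 12 complement promoters 0 were higher and 1 lower, with a median log2 of 0.61, beside 1.47% of all promoters higher. In RNA 7 of 16 complement genes were higher, with a median log2 of 0.77, beside 18.8% of all genes. Adora3 was higher in both readouts, with a promoter log2 of 1.40 and 57.0 against 9.51 CPM. Dock2, lower in RNA, was higher at its promoter (log2 1.13).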

How the data were processed

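Nuclei of mouse brain lesions were profiled for RNA and open chromatin in the same droplet. The deposited matrices hold raw counts per barcode, with UMIs for genes and cut events of the transposase for peaks. Per the submitters' processing notes the authors used Cell Ranger ARC 2.0.0 and mm10, to which vector sequences had been added, and they called barcodes and peaks in each library separately. Events were turned into fragments as counts divided by 2, rounded up. Peaks that overlapped 1 kb on either side of a GENCODE start formed the promoter, with a start found for 32145 of 32298 genes.

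UMIs or fragments were summed over a set of barcodes and given per 1000000 UMIs (CPM) or fragments in peaks (FPM). Ratios carry exact Poisson 95% intervals and shares exact binomial (Clopper-Pearson) 95% intervals, for counting error only. With a set at 0 the floor was 3 counts. List medians take such genes at their bound. Counts of 1 library per genotype were analysed, and hence there are no p-values. Oligodendrocyte barcodes held at least 5 UMIs and 2% of UMIs in a list of myelin genes that includes Mbp, Mog, Mobp, St18 and Mag. For shares of nuclei, each nucleus was thinned to 500 UMIs (seed 100). No clustering was run, and cell names were rebuilt from markers here. The study's own doublet caller was not used. Scrublet (scanpy 1.11.5, expected rate 8%) served as an alternative. The code was tested on simulated data. Python 3.11.15, numpy 2.4.6, scipy 1.17.1 and pandas 2.3.3 were used.

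The members, the lists and their thresholds were chosen with earlier results of these data known, so no list gives independent support. Named genes were list members, of which a few are not reported here, and beyond them the 15 genes ranked highest in each direction with at least 20 UMIs, or ranked by level among those lower than in the other barcodes. The 10 leading peaks away from promoters were named with at least 20 fragments. Sequences were read from the reference genome and RefSeq promoters of GRCm38.p6. The counts of Foxr2 alone replicate 2 were not used here.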

Additional observations from a re-analysis of the deposited data

How the results depend on the processing

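With no test, a direction and a 2-fold call were compared across settings, 1 change at a time. Of 85 alternatives for counts and shares, 72 stayed within 1.5 times a count or within the counting interval of a share. Of the values of single genes under these settings, 4547 kept their call or stayed uncalled, 158 lost and 149 gained a call. Direction was compared only where the gene was called in the main setting or in the alternative. By that comparison, 9 values of genes called in the main setting turned. A further 24 gained a call in the direction opposite to their uncalled main value. With Scrublet-marked barcodes removed, neuronal RNA stood at 750.0 CPM in place of 1424. With a minimum of 1000 UMIs the share of immune nuclei in Foxr2 alone was 3.32% and neuronal RNA 1567 CPM. With at least 5 rule UMIs and 0.4%, the shares were 2.57% in Foxr2 alone and 15.5% in Foxr2 p53LOF, neuronal RNA was 642 CPM, and the log2 of Vcan against Foxr2 p53LOF was 0.39. In the nuclei at or below the median neuronal share it was 50.7 CPM, by the construction of that set.

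With no filter on low counts, 41843 peaks were lower in place of 9528. Without nuclei carrying another immune list, a setting chosen after seeing the data, neuronal RNA was 919 CPM, the log2 against the other barcodes was -0.38 for S100a8 and -1.13 for S100a9, and against Foxr2 p53LOF 2.36 for Skap1 and 0.57 for Zbtb46. In nuclei of fewer than 2000 UMIs in both libraries, also chosen after seeing the data, the log2 against Foxr2 p53LOF was -0.92 for Ccl3 and -0.36 for Ccl6. Chil3 and Ly6c2 had 0 UMIs in these nuclei of Foxr2 alone, which against the floor of 3 counts put their log2 at or below -1.95. An overlap of at least 50% of the peak was met by 92.6% of higher peaks in the list of Foxr2 alone replicate 2 and 91.2% in that of Foxr2 p53LOF. The shorter letters GAGGAA were in 28.3% of all promoters and 40.0% of those of homeostatic genes. Apart from the settings that change the set of nuclei or letters by construction, the cause was not tested.

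Subtraction of the other barcodes' profile kept the direction of the homeostatic sum against Foxr2 p53LOF, at a log2 of 1.30, and of MHC class II, at -4.52, and turned that of the CSF1R and TREM2 list to -0.06. No paired analysis was possible because the groups with counts share only 1 replicate number and no result comes from a test. The low UMIs per immune nucleus limit values of genes near 10 CPM, about 6 UMIs over the 413 nuclei.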
